A study of Mus musculus with 23 samples.

Results

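The 10 genes that flank Cftr on mouse chromosome 6, Cav2, Cav1, Met, Capza2, St7, Wnt2, Asz1, Cttnbp2, Tspan12 and Aass, were compared between lungs of cystic fibrosis (CF) mice and Control mice. They are a selection of the genes near the targeted one, not every gene there. The rule names them by their place, but they were chosen with earlier results of these data known. Every probe set annotated with 1 of these symbols alone was taken. This gave 15 probe sets of the 45037 on the array, and 10 of the 18193 genes measured. Of the 10 genes, 5 had 1 probe set and 5 had 2; the brighter is called the leading probe set and the other the second. None was left out for a low value.

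Whole right lungs were measured in CF mice, labelled CF-/-, and in Control mice, labelled CF+/+, of the inbred strains BALB/c (BALB) and C57BL/6 (B6), in females and males. Total RNA was labelled with biotin and put on 23 arrays. BALB had 6 CF and 6 Control arrays and B6 had 5 CF and 6 Control arrays, 3 for each strain, sex and genotype, but 2 for B6 CF males. How cystic fibrosis differs between strains is the subject that the labels give. Age, the kind of targeted allele and the strain of its making were not given in the sources used here. No label says that the replicates are separate animals, so the p-values cover the scatter among these arrays alone, which could be technical.

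Cystic fibrosis is caused by loss of Cftr, the chloride and bicarbonate channel of epithelial cells. A targeted allele that is bred from the strain of its making into another strain keeps DNA of the first strain on both sides of the target, called passenger DNA, and an altered locus can also act on its neighbours. CF mice and their controls can therefore differ in the genes next to Cftr whether or not the disease acts on those genes. Passenger DNA, an effect of the altered locus and an effect of the disease cannot be told apart in these samples, since all 3 go with the genotype.

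The position of the 10 genes was checked in the RefSeq gene order of chromosome 6 (GRCm38.p6), among 992 genes with a probe set there. Counting away from Cftr on the proximal side, the order was Asz1, Wnt2, St7, Capza2, Met, Cav1 and Cav2, so that Cav2 was 7 genes away. On the distal side Cttnbp2 was the next gene, Tspan12 was 6 genes away and Aass 12, and the measured genes between these 3 are no members.

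Met, Wnt2 and Tspan12 were the members that passed the test as lower in CF lungs of both strains, and their promoters are shown so that the sequence context of these 3 start sites can be compared. Each is the RefSeq window of GRCm38.p6 from 250 bases before to 50 bases after the annotated start, written 5′ to 3′ along the gene. Met lies on the plus strand at chr6:17463707-17464006, Wnt2 on the minus strand at chr6:18030396-18030695 and Tspan12 on the minus strand at chr6:21852484-21852783.
Met: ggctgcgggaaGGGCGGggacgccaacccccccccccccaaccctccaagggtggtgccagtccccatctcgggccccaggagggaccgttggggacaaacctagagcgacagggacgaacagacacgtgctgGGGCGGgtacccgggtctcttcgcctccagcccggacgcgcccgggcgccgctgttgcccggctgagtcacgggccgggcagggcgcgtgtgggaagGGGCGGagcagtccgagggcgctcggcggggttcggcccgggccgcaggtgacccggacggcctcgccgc
Wnt2: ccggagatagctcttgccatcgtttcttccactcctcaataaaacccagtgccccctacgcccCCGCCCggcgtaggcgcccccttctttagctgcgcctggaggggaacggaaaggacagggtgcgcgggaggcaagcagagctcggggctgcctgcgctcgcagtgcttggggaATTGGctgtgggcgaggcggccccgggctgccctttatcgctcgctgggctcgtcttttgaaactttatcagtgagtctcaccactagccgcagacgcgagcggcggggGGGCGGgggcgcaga
Tspan12: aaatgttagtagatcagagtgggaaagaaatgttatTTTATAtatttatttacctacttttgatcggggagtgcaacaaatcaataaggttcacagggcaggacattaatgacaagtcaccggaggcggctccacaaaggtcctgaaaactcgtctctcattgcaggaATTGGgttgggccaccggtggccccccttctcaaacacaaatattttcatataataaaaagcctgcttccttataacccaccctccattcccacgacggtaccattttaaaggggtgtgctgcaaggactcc
Capitals mark matches, on either strand, to GGGCGG (the GC box), TATAAA (the TATA box) and CCAAT (the CCAAT box), none of which overlap here. The Met window held 3 GC boxes and 34 CpG dinucleotides, with a GC content of 75.7%. The Wnt2 window held 2 GC boxes, 1 CCAAT box and 27 CpG dinucleotides. The Tspan12 window held no GC box, 1 TATA box, 1 CCAAT box and 7 CpG dinucleotides, with a GC content of 44%. Among all 32851 RefSeq mouse windows of this length, 35.7% held a GC box, 13.6% a TATA box and 37.4% a CCAAT box, and the median window had 7 CpG dinucleotides. The matches describe the letters only. All 10 members had a window in the table.

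Cftr was read first as a check of the genotype labels. In BALB its leading probe set read 3.49, 3.99 and 4.42 on the lowest, median and highest CF array, against 5.40, 5.71 and 5.85 on Control arrays (log2 signal). In B6 it read 3.98, 3.87 and 4.31 on CF females and 3.86 and 4.29 on CF males, against 4.04, 4.29 and 4.58 on the lowest, median and highest Control array. The genotypes did not overlap in BALB and overlapped in B6, so that Cftr checks the labels in BALB alone. In BALB the gut marker scores, explained below, were also lower in CF, at -0.22 to 1.03 against 0.44 to 2.14 on Control arrays. The part of gut tissue in the Cftr values was not tested. The part of the transcript that these probe sets read, and whether the allele removes it, was not analysed here. Of 74 markers of alveolar, airway, endothelial, fibroblast and smooth muscle cells, 71 read above the median probe set, 4.59, on every array, among them Sftpc, the surfactant protein of alveolar type 2 cells, at 13.55 to 13.75. Trp63, of airway basal cells, and Fgf10, a fibroblast growth factor, lay below it on every array, and Rgs5, of pericytes, on some.

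Markers of other tissues and of immune cells also differed between arrays and are given here as scores, the mean over a list of each marker's log2 signal minus its median over the arrays. Gut markers fell in BALB CF lungs (6 of 11 passed), with scores of -0.22 to 1.03 on CF arrays and 0.44 to 2.14 on Control arrays, while 0 of 11 passed in B6 by limma, with 0 at an unadjusted p under 0.05. In B6 Control female 1 had 1.62 and the other arrays stayed at or below 0.06. The gut transcription factors Cdx1 (3.11 to 3.67) and Cdx2 (3.62 to 4.35) stayed below the median probe set on every array. Squamous epithelium scores were 2.49, 3.17 and 4.72 on BALB CF females and -0.23 to -0.10 on BALB CF males, against -0.23 to -0.04 on BALB Control arrays. In B6 the high arrays were Controls: CF arrays reached at most 0.12, while Control male 3 had 4.69 and Control female 1 had 1.74. T and B cell markers rose (6 of 9 in BALB, 5 of 9 in B6), as did myeloid markers (6 of 12 in BALB, 8 of 12 in B6). Sets of scores were each entered as covariates as a check, and the values are given beside each member that passed. The sets were gut, squamous and muscle scores, lymphocyte and myeloid scores, and lung cell scores (endothelial, fibroblast, type 1 and type 2). In BALB the myeloid scores separated the genotypes, at -0.06 to 0.40 on CF arrays and -0.74 to -0.30 on Control arrays. In B6 the alveolar type 1 scores, part of the lung cell set, did so too. They were -0.10 to 0.04 on CF arrays and 0.06 to 0.16 on Control arrays. A fit with such scores cannot separate them well from the genotype, and its errors widen. Over all probe sets the B6 calls also fell with lymphocyte and myeloid scores. Whether cell content made a difference was not tested.

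Across the 15 member probe sets, 6 passed the test in BALB (4 lower and 2 higher in CF) and 6 passed in B6 (all lower in CF). The test throughout was limma's moderated test on log2 signals, with p-values adjusted by Benjamini-Hochberg over all 45037 probe sets and a threshold of 0.05. The share of all probe sets that passed was 4.92% in BALB (2.33% lower and 2.6% higher) and 4.71% in B6 (1.99% lower). Taking the leading probe set of each gene, 4 of 10 members passed in BALB (Met, Wnt2 and Tspan12 lower, Capza2 higher) and 5 of 10 in B6 (Met, Wnt2, Tspan12, Cav2 and Aass, all lower), against 5.53% (BALB) and 5.43% (B6) of all genes. The median change of the 15 probe sets was -0.13 in BALB and -0.27 in B6, while the median over leading probe sets of all genes was -0.01 in BALB and 0.01 in B6. Met, Wnt2 and Tspan12 passed as lower in both strains, which 0.176% of all genes did. Since the members were chosen with earlier results of these data known, these shares describe the list and do not test it.

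The CF effect, BALB minus B6, passed for 0 of the 15 member probe sets by limma, where 2.54% of all probe sets passed. At an unadjusted p under 0.05 there were 3 (both probe sets of Cav2 and the second of Capza2). Genes that passed in 1 strain alone are therefore not shown to respond differently in the other.

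**Figure D1:**
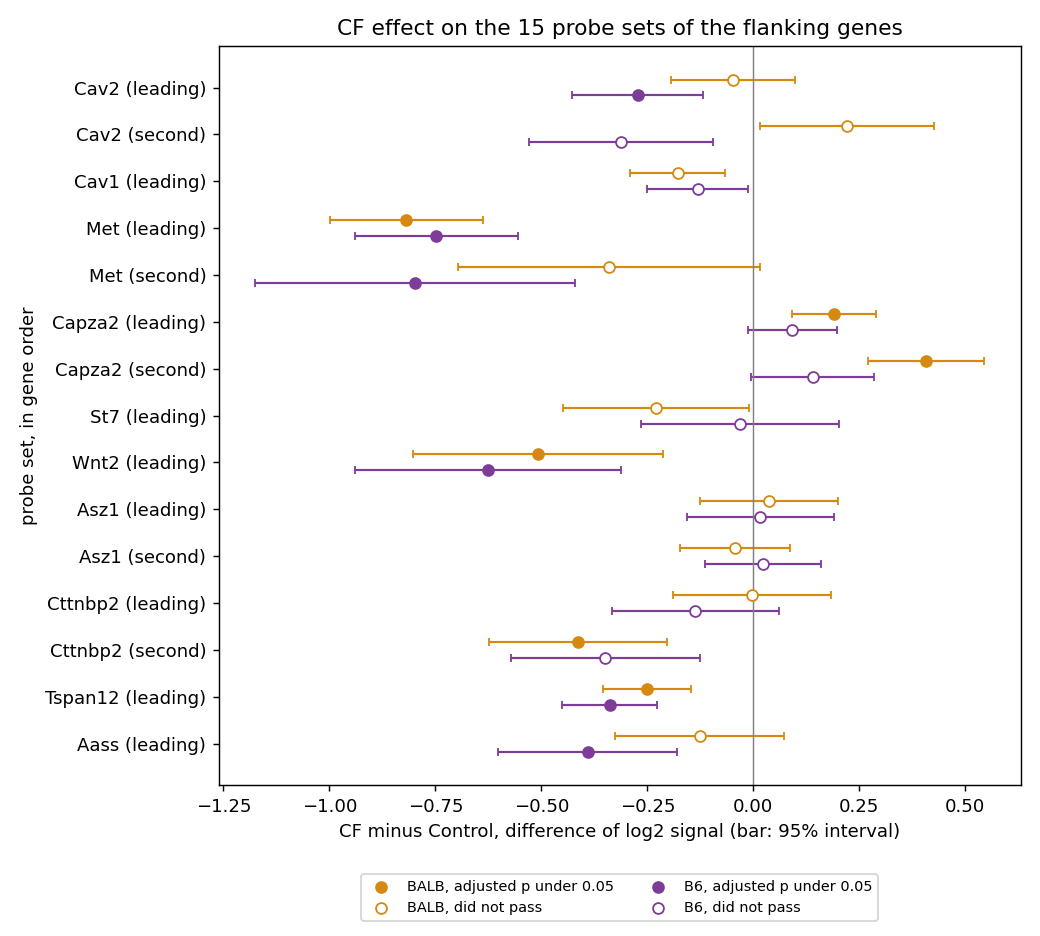
CF minus Control difference of log2 signal (x axis) for each of the 15 probe sets of the flanking genes in gene order (y axis), in BALB and in B6, with 95% intervals and filled points for an adjusted p under 0.05. The leading Met probe set stands farthest left in BALB, at -0.82, and lies at -0.75 in B6. In B6 the second Met probe set stands farthest left, at -0.80. Capza2 is the gene to the right of 0 by both of its probe sets in both strains.

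Met encodes the receptor tyrosine kinase for hepatocyte growth factor, which acts on lung epithelium and endothelium in growth and repair. In BALB its leading probe set (1434447_at) read 7.15, 7.33 and 7.53 on the lowest, median and highest CF array, against 8.01, 8.12 and 8.37 on Control arrays. In B6 it read 7.34, 7.28 and 7.65 on CF females and 7.18 and 7.25 on CF males, against 7.91, 8.07 and 8.18 on the lowest, median and highest Control array. Every CF array was below every Control array of its strain, and below every Control array of the other strain too.

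Met fell by 0.82 in BALB CF lungs (log2, SE 0.09, n = 6 and 6, limma adjusted p = 2.13e-05), which makes it 1.76-fold lower. It fell by 0.75 in B6 CF lungs (SE 0.09, n = 5 and 6, limma adjusted p = 6.74e-05), or 1.68-fold. The fall passed in each sex of each strain, the only member to do so: it was 0.87 in BALB females, 0.77 in BALB males, 0.66 in B6 females and 0.84 in B6 males. In a bulk lung sample, fewer cells that carry a transcript and less of it per cell cannot be told apart. With gut, squamous and muscle scores as covariates the difference was -1.02 in BALB (adjusted p = 0.00652) and -0.81 in B6 (adjusted p = 6.94e-05). With lymphocyte and myeloid scores it was -0.95 in BALB (adjusted p = 0.0617) and -0.82 in B6 (adjusted p = 0.0338). With lung cell scores it was -0.89 in BALB (adjusted p = 0.0001) and -0.67 in B6 (adjusted p = 0.0156). The BALB call was lost with lymphocyte and myeloid scores, and the other covariate fits of Met kept the call.

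The second Met probe set (1422990_at) read 5.18, 5.42 and 5.51 on CF females and 4.63 and 5.20 on CF males of B6, against 5.71, 5.97 and 6.05 on the lowest, median and highest B6 Control array. It fell by 0.80 in B6 (SE 0.18, limma adjusted p = 0.0127) with no overlap. In BALB it read up to 5.96 on CF arrays and as low as 5.33 on Control arrays, which overlap, and its difference was -0.34 (SE 0.17, limma adjusted p = 0.302). Across the 23 arrays the pair of Met probe sets correlated at 0.77.

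Among 20 genes of hepatocyte growth factor and Met signalling, 1 passed as lower and 3 as higher in BALB CF lungs, and 1 as lower and 1 as higher in B6 CF lungs. Their median change was -0.01 in BALB and 0.03 in B6. Hgf, the ligand of Met, passed in opposite directions: its difference was 0.57 in BALB (SE 0.11, limma adjusted p = 0.00469) and -0.50 in B6 (SE 0.12, limma adjusted p = 0.0187). The CF effect on Hgf differed between the strains by 1.07 (BALB minus B6, SE 0.16, limma adjusted p = 0.00136). Sema4d, a semaphorin whose plexin receptor can couple to Met, rose by 0.50 in BALB and by 0.63 in B6. In BALB, Sos1, a Ras activator downstream of receptor kinases, fell by 0.42, and Cd44, a co-receptor of Met, rose by 0.23.

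Wnt2 encodes a secreted Wnt ligand made by lung mesenchyme that is needed for lung development. In BALB it read 6.49, 6.66 and 6.74 on the lowest, median and highest CF array, against 6.80, 7.10 and 7.51 on Control arrays, with no overlap. In B6 it read 5.08, 5.95 and 5.41 on CF females and 6.22 and 5.69 on CF males, against 6.41, 6.58 and 7.06 on Control females and 6.07, 5.97 and 5.96 on Control males. All B6 CF females lay below all B6 Control females, while the ranges of B6 males overlapped.

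The fall of Wnt2 was 0.51 in BALB (SE 0.14, limma adjusted p = 0.0407) and 0.63 in B6 (SE 0.15, limma adjusted p = 0.0184). Within B6 the difference was -1.21 in females (SE 0.20, limma adjusted p = 0.00502) and -0.05 in males (SE 0.22, limma adjusted p = 0.946). Female minus male, the CF effect differed by -1.16 (95% interval -1.79 to -0.53, limma adjusted p = 0.0511), which missed the threshold. Leaving out 1 array ended the BALB call in 11 of 23 cases, with adjusted p up to 0.108 without BALB Control male 2. In B6 the call was lost without Control female 3 (-0.53, adjusted p = 0.0563) and without CF male 2 (-0.49, adjusted p = 0.103). The BALB call of Wnt2 was lost with each set of scores as covariates: the difference was -0.54 with gut, squamous and muscle scores (adjusted p = 0.618), -0.95 with lymphocyte and myeloid scores (adjusted p = 0.202) and -0.19 with lung cell scores (SE 0.15). In B6 it passed with the first set (-0.67, adjusted p = 0.0164) and the second (-1.06, adjusted p = 0.0348), and was lost with lung cell scores (-0.76, adjusted p = 0.0713).

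Tspan12 encodes a tetraspanin that assists the receptor Fzd4 in Norrin signalling, a branch of beta-catenin signalling known from retinal vessels. In BALB it read 5.91, 6.04 and 6.13 on the lowest, median and highest CF array, against 6.20, 6.29 and 6.35 on Control arrays. In B6 it read 5.80, 5.83 and 5.83 on CF females and 5.54 and 5.62 on CF males, against 5.96, 6.04 and 6.14 on the lowest, median and highest Control array. The genotypes did not overlap in either strain, with the CF arrays low in both. Whether the probes of the only Tspan12 probe set (1454604_s_at) also match other transcripts was not checked here.

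Tspan12 fell by 0.25 in BALB (SE 0.05, limma adjusted p = 0.00539) and by 0.34 in B6 (SE 0.05, limma adjusted p = 0.000748), which is 1.19-fold and 1.26-fold. Met and Tspan12 were the members whose leading probe sets separated CF from Control arrays in both strains. Among all probe sets 0.091% separated the genotypes this way in both strains in the same direction. That share does not apply to separation in 1 strain alone, whose share over all probe sets is not given here. An exact two-sided permutation test of a strain's arrays only restates a full separation, since its p is then the smallest it can give, 0.00216 in BALB (6 and 6 arrays) and 0.00433 in B6 (5 and 6 arrays); Wnt2 and Capza2 in BALB and Cav2 and Aass in B6 had the same values. The call on Tspan12 was lost with the gut, squamous and muscle scores as covariates in BALB (-0.32, adjusted p = 0.358), and with lymphocyte and myeloid scores in both strains (-0.15 in BALB, adjusted p = 0.825, and -0.25 in B6, adjusted p = 0.367). With lung cell scores it was lost in both strains too (-0.27 in BALB, adjusted p = 0.0765, and -0.30 in B6, adjusted p = 0.205), and with gut, squamous and muscle scores B6 still passed (-0.32, adjusted p = 0.00696).

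Among 31 measured genes of Wnt and Norrin signalling, 4 passed as lower and 0 as higher in BALB CF lungs, and 1 passed as lower and 1 as higher in B6 CF lungs, with medians of 0.00203 in BALB and -0.00491 in B6. The 4 in BALB were the receptors Fzd4, which fell by 0.34 (SE 0.06, limma adjusted p = 0.00273), and Fzd8, which fell by 0.28, the co-receptor Lrp6, which fell by 0.23, and the pathway inhibitor Nkd1, which fell by 0.24. In B6 the signal carrier Ctnnb1 fell by 0.24 and the scaffold Axin1 rose by 0.23. The CF effect on Fzd4 differed between the strains by -0.42 (BALB minus B6, SE 0.09, limma adjusted p = 0.017) and that on Fzd8 by -0.44 (SE 0.09, limma adjusted p = 0.0102). Ndp, the Norrin ligand, had differences of 0.05 in BALB and 0.0046 in B6 that did not pass.

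**Figure D2:**
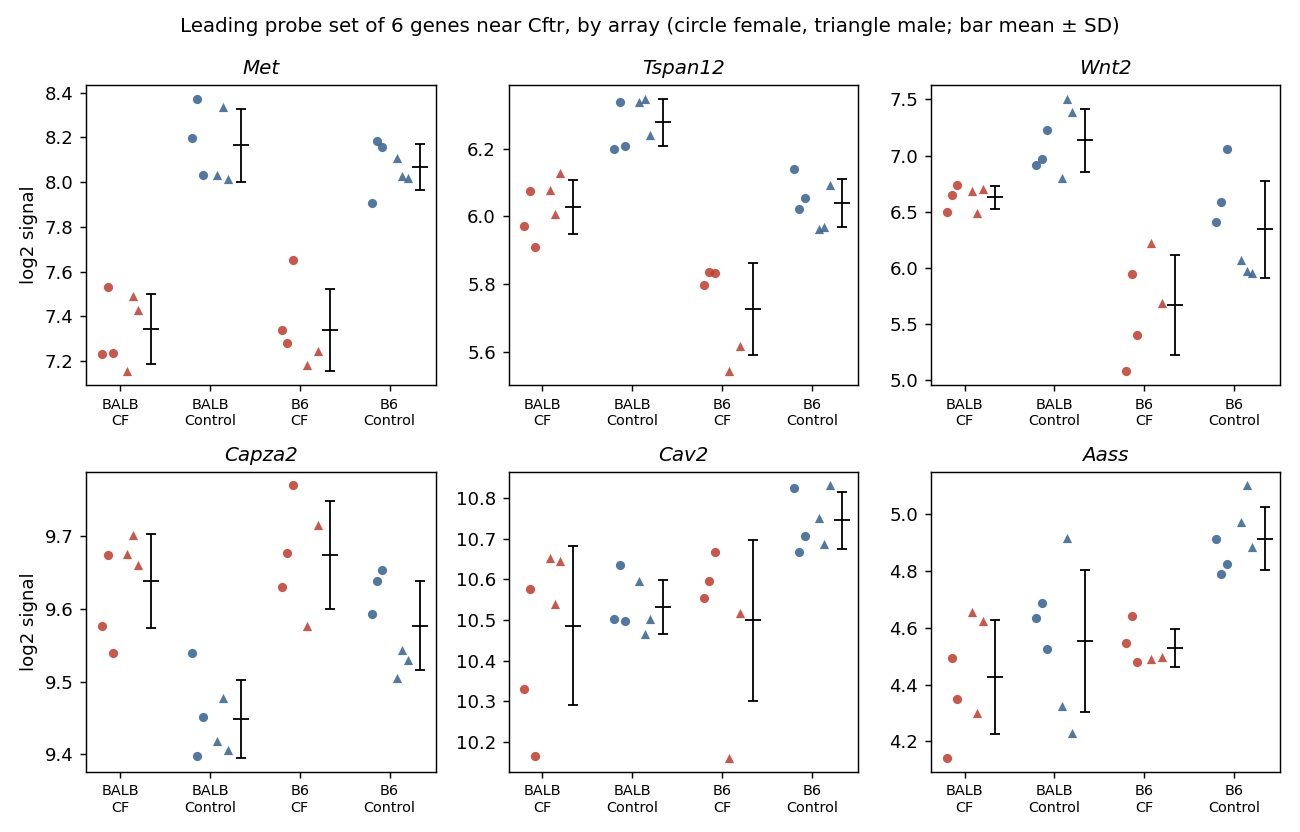
Log2 signal (y axis) of the leading probe set of 6 flanking genes on every array, by strain and genotype (x axis), with circles for females, triangles for males and a bar for the mean ± SD. CF arrays of Met and Tspan12 lie below all Control arrays of the same strain, and Wnt2 of B6 is split by sex among the Control arrays.

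Cav1 and Cav2 encode caveolins, the coat proteins of caveolae, the membrane pits that are dense on lung endothelium and alveolar type 1 cells. In BALB the leading Cav2 probe set (1417327_at) read 10.17, 10.56 and 10.65 on the lowest, median and highest CF array, against 10.46, 10.50 and 10.64 on Control arrays. In B6 it read 10.55, 10.60 and 10.67 on CF females and 10.16 and 10.52 on CF males, against 10.67, 10.73 and 10.83 on the lowest, median and highest Control array. The genotypes overlapped in BALB. In B6 the CF arrays were all lower, with ranges that meet at 10.67 without overlapping, and CF male 1 was the lowest.

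Cav2 fell by 0.27 in B6 (SE 0.07, limma adjusted p = 0.0369) and its difference in BALB was -0.05 (SE 0.07, limma adjusted p = 0.806). Without B6 CF male 1 the B6 difference was -0.18 (adjusted p = 0.289), and 8 other arrays also ended the call when left out. The second Cav2 probe set (1425955_at) followed the first only weakly, with a correlation of 0.29 over 23 arrays, and its difference was 0.22 in BALB and -0.31 in B6 (limma adjusted p = 0.230 and 0.0966). In B6 males alone it fell by 0.65 (SE 0.16, limma adjusted p = 0.0143). Its CF effect, BALB minus B6, was 0.53 (SE 0.14, limma adjusted p = 0.0509), which missed the threshold. Cav1 read 11.45, 11.72 and 11.85 on the lowest, median and highest BALB CF array, against 11.83, 11.89 and 11.92 on Control arrays, a near separation. Its differences, -0.18 in BALB (SE 0.05, limma adjusted p = 0.0617) and -0.13 in B6 (SE 0.06, limma adjusted p = 0.228), did not pass. Across all 23 arrays Cav1 and Cav2 correlated at 0.80, the highest value among pairs of members.

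Of 11 other caveola genes measured, 1 passed as lower in BALB CF lungs, and in B6 0 passed by limma, with 0 at an unadjusted p under 0.05. The 1 was Cavin1, which coats caveolae together with caveolins, and which fell by 0.37 (SE 0.10, limma adjusted p = 0.0299). Markers of lung endothelium passed as lower for 4 of 15 genes in BALB, and for 1 lower and 1 higher in B6. Alveolar type 1 markers passed as lower for 1 of 12 in BALB and for 2 of 12 in B6. The part of these cells in the caveolin values was not tested beyond the covariate fit, in which the B6 call of Cav2 was lost with lung cell scores (-0.19, adjusted p = 0.635), with gut, squamous and muscle scores (-0.26, adjusted p = 0.111) and with lymphocyte and myeloid scores (-0.15, adjusted p = 0.827).

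Capza2 encodes the alpha subunit of the protein that caps the growing end of actin filaments, and was the member that was higher in CF. In BALB the leading probe set (1423057_at) read 9.54, 9.67 and 9.70 on the lowest, median and highest CF array, against 9.40, 9.43 and 9.54 on Control arrays, so that the ranges met at 9.54 without overlapping. The second probe set (1423058_at) read 8.90, 9.04 and 9.14 on BALB CF arrays and 8.49, 8.61 and 8.87 on Control arrays, with a gap between them. The difference in BALB was 0.19 by the leading probe set (SE 0.05, limma adjusted p = 0.024) and 0.41 by the second (SE 0.07, limma adjusted p = 0.000959). In B6 these were 0.09 (limma adjusted p = 0.371) and 0.14 (limma adjusted p = 0.315), with overlapping ranges. The probe sets correlated at 0.80 over 23 arrays. Leaving out 1 array ended the BALB call of the leading probe set in 4 cases, with the largest adjusted p, 0.0586, without BALB CF female 2. That call was also lost with each set of scores as covariates, with differences of 0.21 for gut, squamous and muscle (adjusted p = 0.65), 0.19 for lymphocyte and myeloid (adjusted p = 0.741) and 0.18 for lung cell scores (adjusted p = 0.254).

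Among 14 other genes of actin capping and barbed ends, 1 passed as higher in BALB and 3 as higher in B6, with 0 lower in either. Capg, a capping protein that macrophages hold in quantity, rose by 0.30 in BALB and by 0.34 in B6. Carmil1, which takes capping protein off filaments, rose by 0.31 in B6, and Evl, which promotes filament growth, rose by 0.34 in B6. The partner subunit Capzb had a difference of 0.05 in BALB and 0.04 in B6, and neither passed.

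Aass encodes the enzyme of the first steps of lysine breakdown in mitochondria. In B6 it read 4.55, 4.64 and 4.48 on CF females and 4.49 and 4.50 on CF males, against 4.79, 4.90 and 5.10 on the lowest, median and highest Control array, with all CF arrays below. It fell by 0.39 in B6 (SE 0.10, limma adjusted p = 0.0295) and had a difference of -0.13 in BALB (SE 0.10, limma adjusted p = 0.546), where the ranges of 4.14 to 4.66 and 4.23 to 4.92 overlapped. Leaving out 1 array ended the B6 call in 7 cases, with the largest adjusted p, 0.113, without B6 CF male 1. The B6 call of Aass was lost with each set of scores as covariates: the difference was -0.12 with lung cell scores (adjusted p = 0.828), -0.29 with lymphocyte and myeloid scores (adjusted p = 0.706) and -0.41 with gut, squamous and muscle scores (adjusted p = 0.0661). Of 12 other genes of lysine breakdown, Hykk, a kinase of hydroxylysine, fell in BALB by 0.41, and in B6 0 passed by limma, with 0 at an unadjusted p under 0.05.

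St7, a gene named for suppression of tumorigenicity whose protein has no settled role, had differences of -0.23 in BALB and -0.03 in B6. Its CF arrays read 4.20 to 4.95 in BALB and 4.59 to 5.41 in B6, against 4.80 to 5.15 in BALB and 4.59 to 5.17 in B6 Control arrays. Neither strain passed (limma adjusted p = 0.25 and 0.935). Asz1, a germ cell protein that protects against transposons through piwi-interacting RNA, lay below the median probe set by both probe sets, and its differences ran from -0.04 to 0.04. Of 12 other measured genes of that pathway, 0 passed in either strain by limma, with 0 in BALB and 1 in B6 at an unadjusted p under 0.05. Cttnbp2, a partner of cortactin known from neurons, was dim too. Its leading probe set had differences of -0.0025 in BALB and -0.14 in B6 that did not pass. Its second probe set fell by 0.41 in BALB (SE 0.10, limma adjusted p = 0.0199) and had -0.35 in B6 (SE 0.11, limma adjusted p = 0.0657), but it read 2.60 to 3.55 on all arrays, among the dimmer signals of the array, and correlated with the leading one at 0.11 over 23 arrays.

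The strains were also compared within each genotype, BALB minus B6. In CF lungs 2 of 15 member probe sets passed, where 18.2% of all probe sets did, and in Control lungs 7 of 15 passed, where 15.6% did. Wnt2 was higher in BALB by 0.91 among CF arrays (SE 0.15, limma adjusted p = 0.000123) and by 0.79 among Control arrays (SE 0.14, limma adjusted p = 0.000313). Tspan12 was higher in BALB by 0.33 among CF arrays and by 0.24 among Control arrays. Both genes differed in signal between the strains in either genotype. Strain variants in the probe sequences were not checked here, so differences of signal need not be differences of transcript. The same limit holds between CF and Control arrays near Cftr, where passenger DNA may differ. Cav2 and Aass passed among Control arrays, at -0.21 and -0.36 (BALB minus B6), and had 0.01 and -0.10 among CF arrays. The change in a strain difference between genotypes is the same quantity as the CF effect, BALB minus B6, which did not pass for any member. Met had strain differences of 0.03 among CF arrays and 0.10 among Control arrays, with overlapping ranges.

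**Figure D3:**
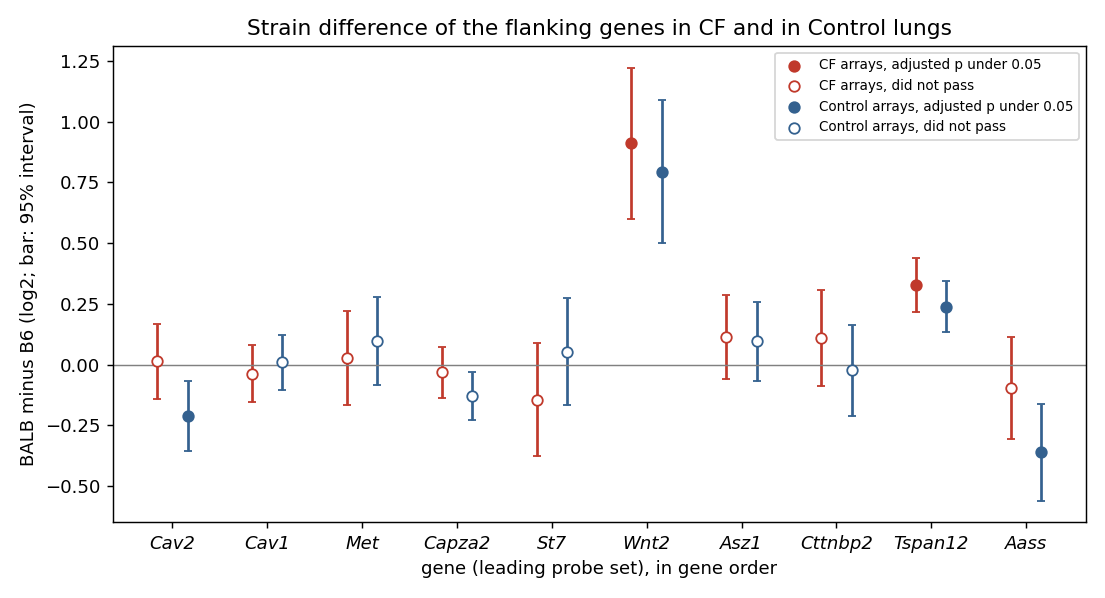
BALB minus B6 difference of log2 signal (y axis) of the leading probe set of each flanking gene in gene order (x axis), among CF arrays and among Control arrays, with 95% intervals and filled points for an adjusted p under 0.05. Wnt2 and Tspan12 lie above 0 in both genotypes, at 0.91 and 0.33 among CF arrays and 0.79 and 0.24 among Control arrays.

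By sex, 1 member probe set passed in BALB females (1.19% of all probe sets did), 2 in BALB males (1.93%), 2 in B6 females (0.815%) and 5 in B6 males (6.24%). Female minus male, 0 of 15 passed in BALB (0.0178% of all) and 0 in B6 (1.75%) by limma, with 0 and 2 at an unadjusted p under 0.05.

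The neighbourhood was then widened to the 40 measured genes on each side of Cftr, 80 in all, of which the 10 members are part. In BALB 9 of the 80 passed (11.2%, 5 lower and 4 higher in CF) and in B6 6 passed (7.5%, all lower), against 6.7% of the 911 other genes of the chromosome in each strain. Within the 10 nearest genes on each side 5 of 20 passed in BALB (25%) and 4 of 20 in B6 (20%). In BALB these were the members Met, Wnt2, Tspan12 and Capza2 and the non-member D830026I12Rik. In B6 all were members: Met, Wnt2, Tspan12 and Cav2. Since members were chosen with earlier results of these data known, these shares cannot tell whether calls depend on the distance from Cftr. Between 21 and 40 genes away 2 of 40 passed in BALB and 0 of 40 in B6 by limma, where 5 had an unadjusted p under 0.05. No test of these shares was made.

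Members made up 4 of the 9 genes in BALB and 5 of the 6 in B6. Among the 70 neighbours that are no members, 5 passed in BALB (7.14%) and 1 in B6 (1.43%). Tmem106b, a lysosomal membrane protein 21 genes proximal of Cftr, read 9.26 to 9.61 on BALB CF arrays and 9.01 to 9.16 on BALB Control arrays, a rise of 0.40 (SE 0.07, limma adjusted p = 0.000904). The unnamed transcript D830026I12Rik, 8 genes proximal, rose by 0.97 in BALB (SE 0.15, limma adjusted p = 0.000558), with the lowest CF array at 3.06 and Control arrays at 2.35 to 2.69. It read 4.20 to 4.67 on B6 CF arrays and 3.47 to 4.95 on B6 Control arrays. The means were 3.48 in BALB CF, 2.51 in BALB Control, 4.39 in B6 CF and 4.21 in B6 Control. The B6 Control mean pools females at 4.80 and males at 3.63, while BALB CF females were at 3.43 and males at 3.53. D830026I12Rik was dim, with a mean of 3.62 over all arrays, below the median probe set, 4.59. Tmem168 rose by 0.31, Umad1 fell by 0.30, and Slc13a1, a sulfate transporter of kidney and gut, fell by 0.88 in BALB, where the gut scores were lower as well. In B6 the transcript 1110019D14Rik fell by 0.29 (limma adjusted p = 0.0468). Leaving out 1 array ended the call of 1110019D14Rik in 19 of 23 cases (adjusted p up to 0.227, without B6 CF male 1), that of Umad1 in 15 (up to 0.119, without BALB Control male 2) and that of Tmem168 in 3 (up to 0.0608, without BALB Control female 1). With scores as covariates the calls of these 6 neighbours were lost under each of the 3 sets, except that D830026I12Rik passed with lung cell scores (1.18, adjusted p = 0.00577). With gut, squamous and muscle scores the difference was 0.49 for Tmem106b (adjusted p = 0.189), 0.55 for D830026I12Rik (adjusted p = 0.65) and -0.10 for Slc13a1 (adjusted p = 0.946). The mean of a gene's probe sets gave -0.08 for Umad1 (adjusted p = 0.5) and 0.12 for Tmem168 (adjusted p = 0.237), which did not pass.

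**Figure D4:**
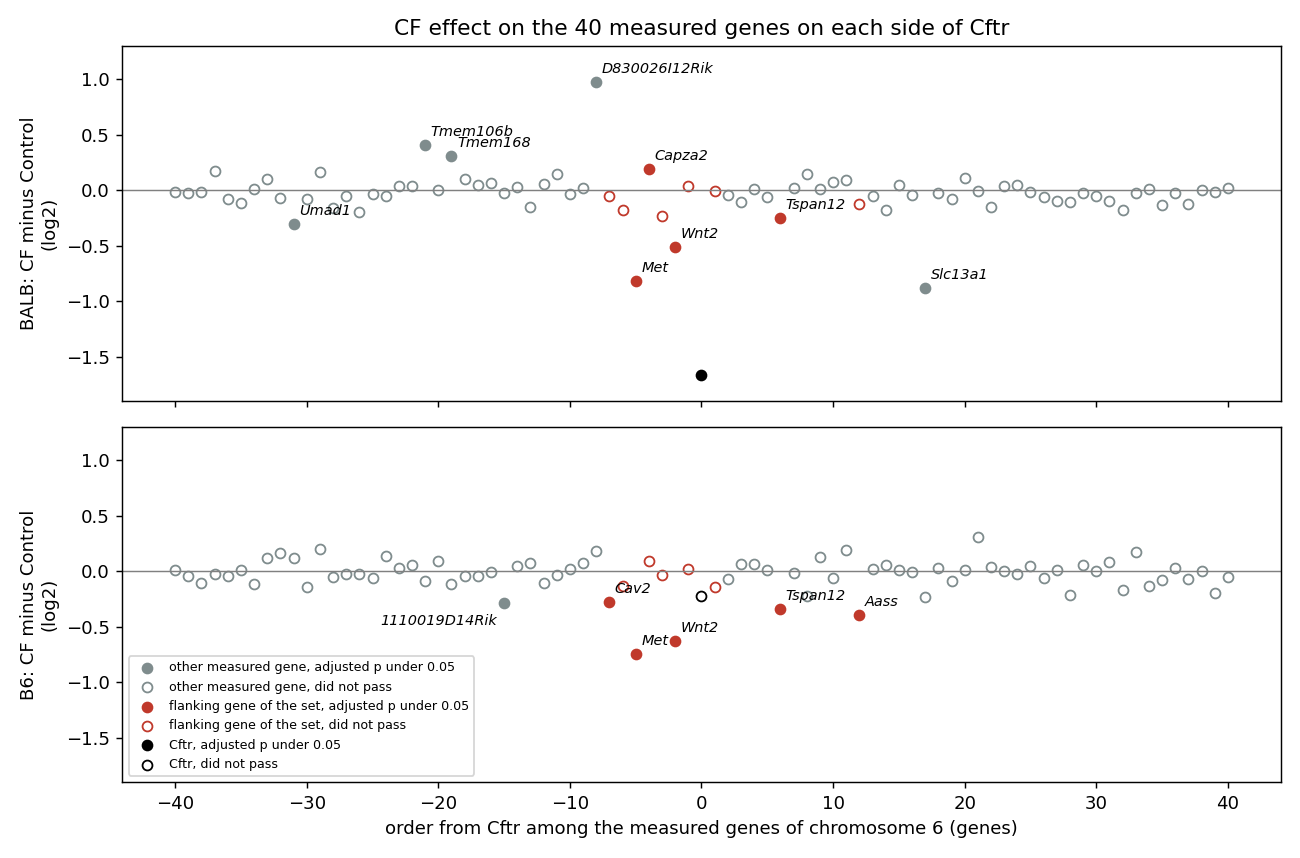
CF minus Control difference of log2 signal (y axis) of the 40 measured genes on each side of Cftr by their order from it (x axis), in BALB and in B6, with filled points for an adjusted p under 0.05. Met lies 5 genes from Cftr and falls by 0.82 in BALB and 0.75 in B6, the lowest of the neighbours called in B6, while in BALB Slc13a1 at -0.88 lies lower.

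The genes whose leading probe set was most like a member across the 23 arrays were listed for the 3 members that passed in both strains, among 11626 genes of at least median signal and by Pearson correlation, as a description. For Met they were Cyp1a1, a xenobiotic oxidase induced through the aryl hydrocarbon receptor (0.86), Esm1, a proteoglycan of endothelial tip cells (0.86), and Scarb1, the receptor for high density lipoprotein (0.84). All 3 fell in both strains: Cyp1a1 by 2.58 in BALB and 2.88 in B6, Esm1 by 0.97 and 0.81, and Scarb1 by 0.43 and 0.39. None of the genes listed for Met, Tspan12 or Wnt2 lies on chromosome 6. For Tspan12 they were Adk, adenosine kinase (0.90), Smarca2, a chromatin remodelling ATPase (0.88), and Cpne8, a copine (0.85). Adk fell by 0.20 in BALB and 0.30 in B6, and Smarca2 by 0.27 and 0.32, which passed in both strains. Cpne8 passed as lower in B6 alone, by 0.41. For Wnt2 they were Fads1, a fatty acid desaturase (0.89), the haem transporter Slc48a1 (0.86) and the tyrosine breakdown enzyme Fah (0.86), none of which passed in either strain. These correlations pool strain, sex and genotype, and shared differences between groups raise them.

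Among pairs of members, Wnt2 and Tspan12 correlated at 0.73, Met and Tspan12 at 0.69, and Met and Cav1 at 0.68, over arrays that share the same group differences.

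The Met values were set beside the gut score, which differed between the genotypes in BALB with overlap. BALB CF arrays had a median score of -0.11 and BALB Control arrays 1.64. Within B6, 5 of the 6 Control arrays had scores of -0.20 to -0.02, and B6 Control female 1 had 1.62. The fall of Met was 0.75 with all B6 arrays and 0.79 without B6 Control female 1 (limma adjusted p = 5.52e-05). Whether gut tissue bears on the Met values was not tested beyond the covariate fit.

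**Figure D5:**
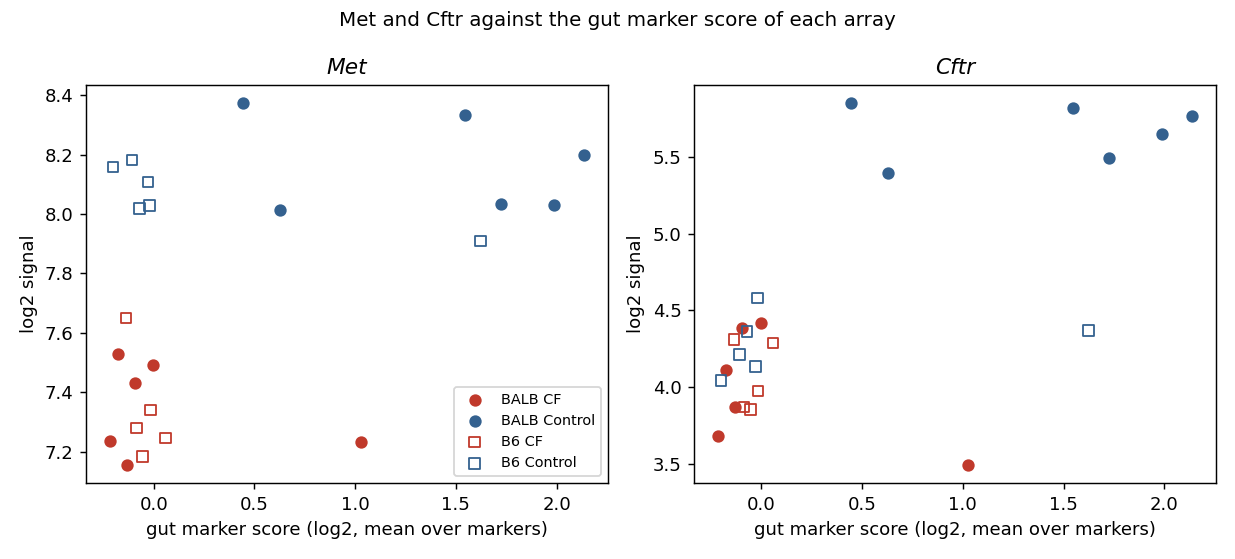
Log2 signal of Met and of Cftr (y axes) on each array against its gut marker score (x axis), with colour and marker for strain and genotype. BALB Control arrays, with scores of 0.44 to 2.14, read 8.01 to 8.37 for Met. BALB CF arrays, with scores of -0.22 to 1.03, read 7.15 to 7.53. B6 CF arrays, with scores of -0.14 to 0.06, lay below the B6 Control arrays for Met.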

How the data were processed

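Values were those of the deposited value table, 45101 probe sets on 23 arrays of biotin-labelled total RNA, with every column matched to a group by its title. They are taken to be log2 signals that the authors had brought to a common scale before they deposited them; this was inferred from the values (1.79 to 13.82, array medians 4.56 to 4.64). The method of probe summary and normalization was not given in the sources used here. No pair of arrays was identical (0 pairs), and arrays correlated at 0.971 to 0.996. The number of arrays limits the precision.

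Affymetrix controls (64) were left out. Symbols came from the platform annotation: 34945 probe sets had 1, 932 had several and 9160 had none. RefSeq tables of GRCm38.p6 gave gene order and promoter windows.

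The means of 8 groups were fitted with limma 3.58.1 in R 4.3.3 (15 residual and 5.81 prior degrees of freedom), with 11 comparisons, each adjusted by Benjamini-Hochberg over 45037 probe sets at a threshold of 0.05. A strain's CF effect averages the effects of its females and males. The fit was also run on data simulated with independent normal noise for each probe set and array. Such noise lacks the tissue differences that genes share on these arrays, and the outcome is not given here. Exact permutation tests used scipy 1.17.1. Samples sharing a replicate number did not deviate together, so the numbers were not used as pairs.

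The members, lists, tests and named genes were chosen with earlier results of these data known. Named were all members, Cftr, every called gene within 40 genes of Cftr, up to 4 genes of lowest p per pathway list, and the 3 genes most correlated with each member that passed in both strains. Alternatives were quantile normalization, median centring, a filter on dim probe sets, a replicate block, no sex terms, 1 strain alone, a variance trend, array weights, tissue scores as covariates, the mean of a gene's probe sets and leaving out each array.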

Additional observations from a re-analysis of the deposited data

Results flagged for a closer look

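St7 on BALB CF female 1 read 4.20, the lowest of 6 BALB CF arrays, with the next at 4.72; the gap was 0.687 of the group's range. Of 68 sets of arrays examined this was the 1 that stood apart by Dixon's test, which chance does in about 1 of 20.

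The CF effect of several genes differed between strains or sexes. For Cftr it differed by -1.45 (BALB minus B6, SE 0.18, limma adjusted p = 0.000258). For Tmem106b it differed by 0.49 (SE 0.09, limma adjusted p = 0.0073) and for Tmem168 by 0.42 (SE 0.11, limma adjusted p = 0.0409), where CF lungs passed as higher in BALB; leaving out 1 array ended the Tmem168 difference in 16 of 23 cases. For D830026I12Rik the CF effect in B6 differed by -1.25 between the sexes (female minus male, SE 0.31, limma adjusted p = 0.0435), with CF below Control in females (4.35 and 4.80) and above it in males (4.44 and 3.63).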

How the results depend on the processing

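Under the alternatives other than lymphocyte and myeloid scores and lung cell scores, Met was lower in CF lungs of both strains. Its differences were -0.58 to -1.02 in BALB and -0.73 to -0.81 in B6. Leaving out 1 array gave -0.87 to -0.77 in BALB and -0.81 to -0.71 in B6. The marker lists behind the gut, squamous and muscle scores, which gave -1.02 in BALB, were chosen with earlier results of these data known. Over 396 values of single genes and alternatives, 332 stayed on their side of the threshold, 12 of them with the other sign and not past it, 57 no longer passed and 7 newly passed; 0 called values reversed. Lymphocyte and myeloid scores and lung cell scores as covariates were chosen after seeing the data. The causes of the changes were not tested.

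Member genes past the threshold numbered 4 in BALB and 5 in B6, and called neighbours 9 and 6. With gut, squamous and muscle scores as covariates these were 1 and 3, and 1 and 3. With lung cell scores they were 1 and 1, and 2 and 1. With lymphocyte and myeloid scores they were 0 and 2, and 0 and 2. Without sex terms B6 had 3 members and 3 neighbours, and with the mean of a gene's probe sets 10 neighbours. Leaving out 1 array gave 2 to 4 members in BALB, 2 to 5 in B6, 5 to 9 neighbours in BALB and 2 to 6 in B6; the fewest members remained without BALB Control female 3 or BALB CF male 2 (2 in BALB) and without B6 Control female 3 (2 in B6).

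For single sexes, B6 females had 2 members, 1 with lung cell scores, with lymphocyte and myeloid scores or with the mean of probe sets, and 0 to 2 when 1 array was left out. B6 males had 3, which became 1 with lung cell scores, 0 with lymphocyte and myeloid scores and 1 to 4 when 1 array was left out. BALB females had 1, which became 3 with array medians subtracted or with dim probe sets removed, 2 with array weights, the mean of probe sets or a variance trend, and 0 with gut or with lymphocyte and myeloid scores. BALB males had 1, which became 3 with array weights or quantile normalization, 2 with the mean of probe sets, dim probe sets removed or a variance trend, and 0 with lymphocyte and myeloid scores. Female minus male in B6, 0 members became 1 (with array weights, gut scores, lung cell scores, the mean of probe sets or dim probe sets removed) and 0 to 1 when 1 array was left out. The CF effect, BALB minus B6, had 0, and 1 with the mean of probe sets. The strain difference of Control arrays had 4 members, 2 with gut scores and 0 with lung cell or lymphocyte and myeloid scores; that of CF arrays had 2, and 1 with lymphocyte and myeloid scores. Over all probe sets the calls were 2217 in BALB (13 to 3824 over these alternatives) and 2121 in B6 (86 with lymphocyte and myeloid scores), 1142 for their difference (22 with gut scores, 2043 with array weights), 7016 between Control arrays and 8189 between CF arrays (1162 and 2248 with lymphocyte and myeloid scores).

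With the replicate number as a block, members past the threshold were 4 in BALB, 5 in B6 and 1 for female minus male in B6. Deviations of arrays with the same number correlated at -0.18 to 0.35 (median 0.00209), against -0.29 to 0.28 for other pairs, so the numbers do not pair the samples. At most 3 arrays for each strain, sex and genotype limit what the fit can find.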
